A study of Drosophila melanogaster with 2 samples.

Results

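The ush and cbt locus is a stretch of 76 kb near the left end of chromosome arm 2L of Drosophila melanogaster, from 470000 to 546000 in assembly dm6, that holds ush, cbt nested inside it and their close neighbours. Its members are all deposited binding regions of E(var)3-9-GFP that overlap this stretch by at least 1 bp. There are 31 such regions of the 24963 in the list made from both replicates together (the joint list), and 11 of the 3438 that passed the authors' irreproducible discovery rate threshold (IDR peaks). Of the 30000 regions in each replicate's own list, 46 lie here in replicate 2 and 27 in replicate 3.

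The data are chromatin immunoprecipitation followed by sequencing (ChIP-seq) of whole embryos, aged 0 to 24 h and of mixed sex, from 1 transgenic fly line that stably carries E(var)3-9 with GFP at its C-terminus. The precipitation used an antibody against GFP. There was 1 group with 2 biological replicates, numbered 2 and 3, with no untreated or untagged group. Whole embryos of mixed age hold all embryonic tissues, so no binding can be placed in a tissue, and the promoter that drives the tagged protein is not stated in the labels. The value of a region is a score given to it by the authors' peak caller, called signal here, with no stated scale, and read depth is unknown. The locus was picked because its strongest region stood out in this signal, so signals, ranks and counts here are descriptions and carry no test. The error available is the pair of replicate values, given beside the joint value of each region of the window that is described singly. Ranges, window edges and other genes are given by joint signal alone.

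E(var)3-9 takes its name from enhanced position-effect variegation, the mosaic silencing of a gene placed next to heterochromatin. The ush gene (u-shaped) encodes a multi-zinc-finger cofactor of the Friend of GATA family, which binds GATA transcription factors such as Pannier and Serpent and modulates them. It is known from the embryonic amnioserosa and dorsal closure, from blood cell fate and from the pattern of thoracic bristles. The cbt gene (cabut) encodes a zinc finger transcription factor of the family of TGF-beta-inducible early genes, with roles in dorsal closure, in dpp and JNK signalling and in the response to sugar.

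In the annotation, ush (FBgn0003963) runs from 476220 to 540560 on the plus strand over 64.3 kb, of which 10.4% is exon. Its transcripts begin at 4 transcription start sites (TSSs), at 476220, 490835, 523466 and 523736. The cbt gene (FBgn0043364) runs from 476446 to 479688 on the minus strand and lies wholly in the first intron of the longest ush transcripts, so the genes are read in opposite directions. All 3 cbt transcripts begin at 479688.

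The IDR peaks, numbered from left to right, formed groups. Peaks 1 to 3 lay at the 5' end of the neighbouring gene CG4297, peaks 4 to 6 just upstream of cbt inside ush, peak 7 alone deeper in the same ush intron, and peaks 8 to 11 in the next ush intron, ahead of the last pair of ush TSSs. The sequences under the group upstream of cbt are shown because they include the strongest region of the locus. Those under peaks 10 and 11 are shown because they lie nearest to a ush TSS. Each is the plus strand of dm6 centred on the summit of the joint list, with 149 bases to either side for peak 5 and 50 for the others. Capitals mark matches, on either strand, to any of 15 short motifs.

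peak 4, 2L:480021-480121: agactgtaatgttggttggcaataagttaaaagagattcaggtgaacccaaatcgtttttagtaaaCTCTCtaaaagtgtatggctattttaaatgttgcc
peak 5, 2L:480944-481242: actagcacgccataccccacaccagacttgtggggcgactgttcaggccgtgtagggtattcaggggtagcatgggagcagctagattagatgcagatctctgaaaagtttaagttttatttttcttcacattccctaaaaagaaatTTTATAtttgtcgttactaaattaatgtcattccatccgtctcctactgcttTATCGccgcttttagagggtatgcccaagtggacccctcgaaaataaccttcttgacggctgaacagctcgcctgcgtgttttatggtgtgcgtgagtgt
peak 6, 2L:481895-481995: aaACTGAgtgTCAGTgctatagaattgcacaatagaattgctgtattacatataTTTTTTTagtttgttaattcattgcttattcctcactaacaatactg
peak 10, 2L:520763-520863: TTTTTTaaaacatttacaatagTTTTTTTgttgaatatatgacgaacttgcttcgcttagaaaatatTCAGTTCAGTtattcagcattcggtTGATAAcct
peak 11, 2L:522052-522152: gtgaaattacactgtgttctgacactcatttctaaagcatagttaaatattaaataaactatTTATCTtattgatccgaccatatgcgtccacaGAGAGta

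The strongest region of the locus was peak 5, from 480898 to 481282 with its summit at 481093. Its joint signal was 1068, and its signal was 568 in replicate 2 and 503 in replicate 3. It ranked 3 of 3438 by joint signal and also ranked 3 in each replicate's own list. The summit of replicate 3 fell on the same base as the joint summit and that of replicate 2 lay 35 bp away. Both replicates put this site near the top and at nearly the same place. The joint list was made from these replicates and the locus was picked by its signal, so the ranks are descriptions.

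The summit of peak 5 lies 1405 bp upstream of the cbt TSS, 4873 bp downstream of the first ush TSS and 9742 bp upstream of the next, in intron 1 of ush-RE (13.2 kb long). Its joint signal was 12.0 times the median of all IDR peaks (89.3). The only regions ranked above it lay at promoters, at 85 bp from a TSS of CG14100 and 27 bp from one of Ugalt. Among the 1586 IDR peaks farther than 500 bp from every TSS it ranked 1, with 1.43 times the signal of the next (745).

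Peak 4 lay closest to cbt, from 479959 to 480192 with its summit 383 bp upstream of the cbt TSS. Its joint signal was 271 (rank 152), with 150 in replicate 2 (rank 169) and 119 in replicate 3 (rank 158). It is the IDR peak by which cbt counts as occupied at its promoter, taken as 500 bp to either side of a TSS. With 250 bp in its place cbt is not occupied, and 1 IDR peak of the window instead of 3 lies at a promoter. Peak 6, from 481735 to 482154, had its summit 2257 bp upstream of cbt and a joint signal of 123 (rank 959), with 76.5 in replicate 2 (rank 835) and 42.04 in replicate 3 (rank 1426).

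The 3 summits upstream of cbt spanned 1874 bp, with 1022 bp between peaks 4 and 5 and 852 bp between peaks 5 and 6. Together these peaks held 65.9% of the summed joint signal of the 11 IDR peaks, and peak 5 alone held 48.2%. In both replicates peak 5 was the highest of the group, peak 4 the middle one and peak 6 the lowest. No IDR peak or joint region had its summit inside cbt itself. Replicate 2 alone listed a weak region in the cbt 5'UTR, spanning 479078 to 479501, whose signal was 15.8 (rank 11303). Replicate 3 had none there.

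**Figure D1:**
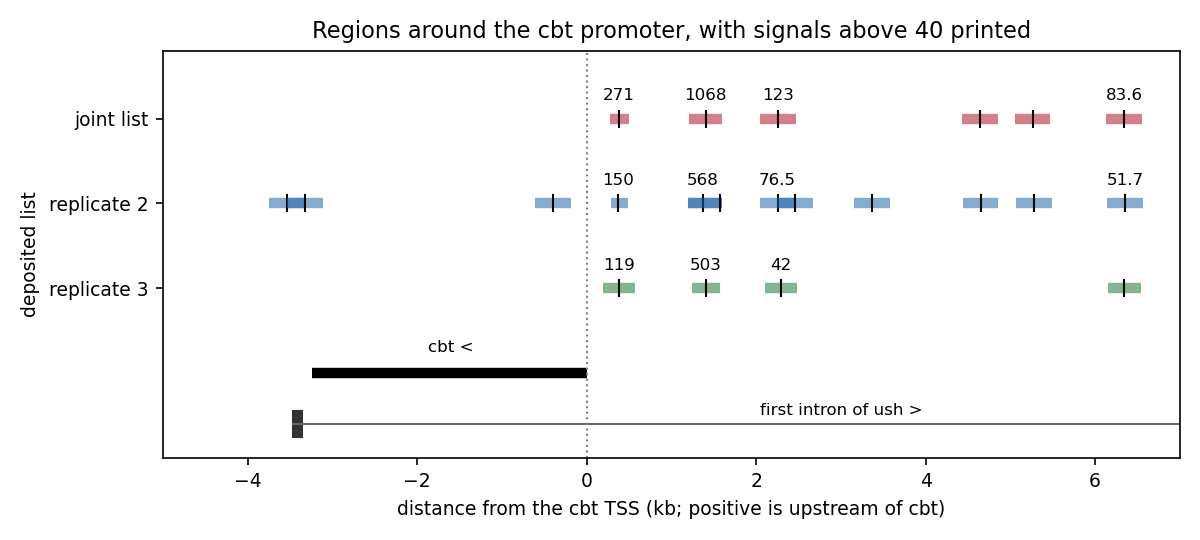
Regions of the joint list and of each replicate (bars, with black ticks at the summits) by distance in kb from the cbt TSS, with the cbt gene and the start of ush below. The 3 peaks upstream of cbt, at 271, 1068 and 123 in the joint list, are present in each replicate in the same order of signal.

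The other IDR peaks of ush, numbered 7 to 11, had joint signals between 59.03 and 116, all below that of peak 6. Peak 7, from 485823 to 486242, lay alone in the same intron as peak 5, 6345 bp upstream of cbt and 4802 bp ahead of the TSS at 490835. Its joint signal was 83.6 (rank 1944), with 51.7 in replicate 2 (rank 1800) and 29.97 in replicate 3 (rank 2539). It thus lay slightly under the median of all IDR peaks.

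Peaks 8 to 11 lay in intron 2 of ush-RE, which is 34.03 kb long and is intron 1 of ush-RB. Peak 8, from 512020 to 512439, had a joint signal of 81.03 (rank 2053), with 42.6 in replicate 2 and 33.1 in replicate 3, and was 11236 bp from the nearest ush TSS. Peak 9, from 516072 to 516491, had 83.03 (rank 1972), with 54.8 in replicate 2 and 19.6 in replicate 3. Peak 10, from 520603 to 521022, was the strongest of these with 116 (rank 1079), 70.6 in replicate 2 and 38.5 in replicate 3, and its summit lay 2653 bp upstream of the ush TSS at 523466. All 3 were higher in replicate 2 than in replicate 3, and peak 9 most of all.

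Peak 11, from 521892 to 522311, was the weakest IDR peak of the locus and the nearest to a ush TSS. Its summit lay 1364 bp upstream of the TSS at 523466 and its joint signal was 59.03 (rank 3363), with 31.8 in replicate 2 and 25.8 in replicate 3. The weakest IDR peak of the series had 58.2, so peak 11 passed narrowly. Just below that threshold came the region from 490035 to 490454 with 56.96 (rank 3557), 23.99 in replicate 2 and 27.95 in replicate 3. Its summit falls in exon 2 of ush-RE, in annotated 5'UTR, 590 bp ahead of the TSS at 490835.

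IDR summits stayed more than 500 bp away from every ush TSS. The nearest IDR summit was 3749 bp from the TSS at 476220, 4802 bp from that at 490835, 1364 bp from that at 523466 and 1634 bp from that at 523736. In the joint list, 1 weaker region came within that distance, from 522762 to 523181 with its summit 494 bp upstream of the TSS at 523466. It had a joint signal of 53.9 (rank 3812), below the threshold, with 46.04 in replicate 2 (rank 2223) and 15.1 in replicate 3 (rank 10814). That region was among the 3438 strongest in replicate 2 and far below them in replicate 3. Replicate 2 alone had a further region 257 bp upstream of the same TSS, with a signal of 18.6 (rank 8738).

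The TSSs at 476220 and 490835 had regions in replicate 2 alone. They lay 67 bp and 36 bp upstream of those TSSs and were weak, with signals of 12.9 (rank 15926) and 9.84 (rank 24659) of 30000. A second region of replicate 2 at the TSS at 476220, from 476153 to 476576, had its summit 145 bp downstream and a signal of 11.03 (rank 20591). The median signal of the replicate 2 list was 13.4. None of the 3 had a counterpart in the joint list or in replicate 3, so the start of the longest ush transcripts bore no region found in both replicates.

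**Figure D2:**
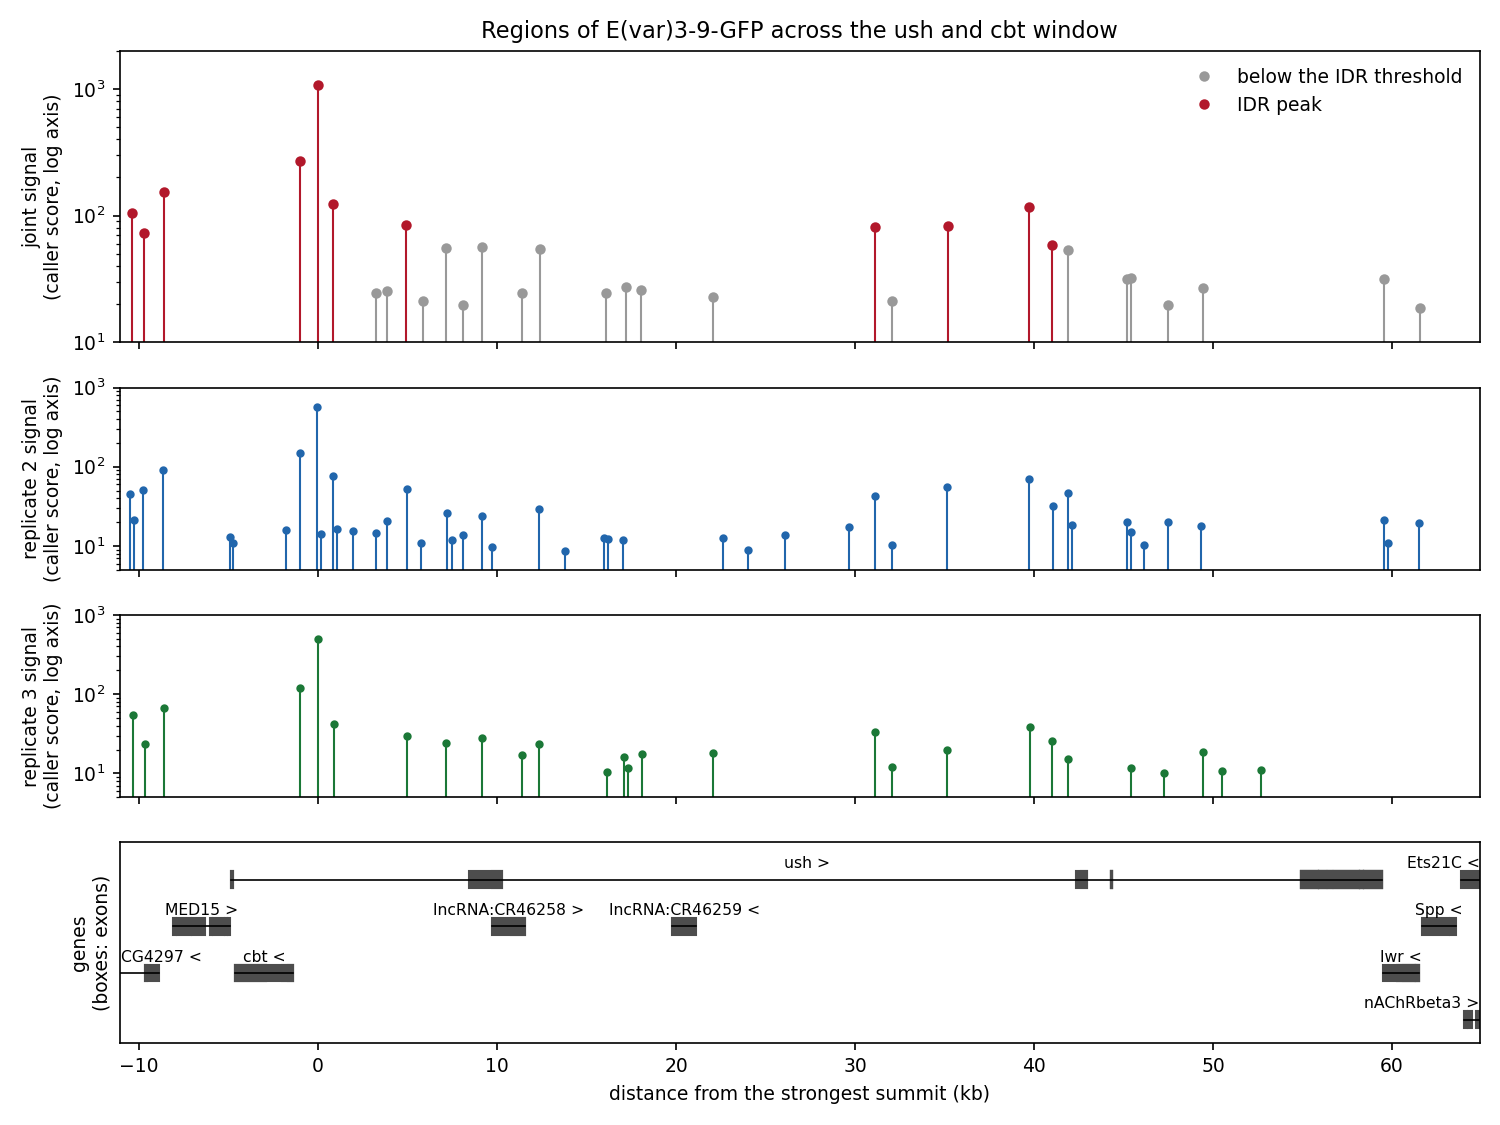
Signal (caller score, log axis) of every region by the distance of its summit in kb from that of peak 5, for the joint list, replicate 2 and replicate 3, above the annotated genes (boxes are exons, arrowheads the direction of reading). The 11 IDR peaks are red and the 20 weaker joint regions grey. The tallest point in all 3 panels is the same site, and the right end of ush, with most of its exons, holds no summit.

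The neighbours of ush differed in what lay at their starts. CG4297 (FBgn0031258, 458876 to 472200, minus strand) had peak 2, from 471177 to 471596, 168 bp downstream of its TSS at 471555, and peak 3, from 472261 to 472680, 271 bp upstream of its TSS at 472200. Peak 3 had a joint signal of 154 (rank 611), with 90.8 in replicate 2 (rank 596) and 67.1 in replicate 3 (rank 582). Peak 2 had 72.9 (rank 2452), with 50.7 in replicate 2 (rank 1869) and 23.7 in replicate 3 (rank 3743). Peak 3 was thus ranked alike by the replicates and peak 2 was not.

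Peak 1, from 470496 to 470915, lay in intron 1 of CG4297-RC, 849 bp from the nearest TSS. Its joint signal was 105 (rank 1298), and it was the only IDR peak here that was lower in replicate 2, with 44.8, than in replicate 3, with 53.9. Peak 3 also lies 542 bp upstream of the TSS of MED15, the gene of a Mediator subunit that is read away from CG4297 and ends just ahead of ush. MED15 therefore just missed the promoter distance.

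The genes beyond the right end of ush had no IDR peak. The gene lwr, for the enzyme that conjugates SUMO, had a weak joint region from 542458 to 542877, 88 bp upstream of its TSS, with a signal of 18.7 (rank 22429), listed in replicate 2 with 19.6 and absent from replicate 3. A second weak region, from 540415 to 540834, had its summit in the 3'UTR of lwr and overlapped the end of the last ush exon. Its joint signal was 31.4 (rank 8249), with 21.1 in replicate 2 and none in replicate 3. Both weak regions rest on replicate 2 and the joint list. The nearest joint summit was 1985 bp from the TSS of Spp, for a signal peptide peptidase, and 2461 bp from that of nAChRbeta3, for a nicotinic acetylcholine receptor subunit. Ets21C, for an ETS transcription factor, had its nearest IDR summit 21512 bp from any of its TSSs. The next protein-coding genes outside the window, CG4133 on the left and rempA on the right, were 13318 and 14125 bp from an IDR summit.

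The edges of the window are set by the rule and not by a gap in binding on the left. The last joint region before it, from 468639 to 469058, was itself an IDR peak with a signal of 92.5 and lay 942 bp outside. On the right the first joint region lay 3601 bp outside with a signal of 22.8, and the next IDR peak 28225 bp outside with 101 (rank 1392).

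Across the window, 11 of 31 joint regions (35.5%) were IDR peaks, where 13.8% of all joint regions were. This share cannot be read as a result about the locus, since the locus was chosen by the signal that sets the threshold. There were 14.5 IDR summits per 100 kb of the window, against 2.70 on arm 2L and 2.57 over all 6 arms. Counting all joint regions, the density was 40.8 per 100 kb, against 20.6 on 2L and 18.7 over all arms.

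Promoters, as defined above, held 3 of the 11 IDR summits (peaks 2, 3 and 4), against 53.9% of all IDR peaks. The other 8 lay farther away, 7 of them in ush. By annotation 10 of the 11 summits fell in introns and 1, peak 3, between genes, where 46.5% of all IDR summits were intronic. Peak 2 counts as intronic by its joint summit, while its summit in replicate 3 fell in the 5'UTR of CG4297. Of all 31 joint summits, 26 were intronic, against 49.6% of the whole joint list, and the rest were 2 intergenic, 1 in 5'UTR, 1 in 3'UTR and 1 in an exon of the long noncoding RNA lncRNA:CR46258. None was in coding sequence, which held 0.262% of all IDR summits and 5.28% of all joint summits. The window was drawn around ush, of which 10.4% is exon, so it is mostly intron by its choice. The shares of its bases in introns and in coding sequence are not given here, so these counts describe the window alone.

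Inside ush the summits lay in the long introns toward its 5' end. The gene span held 8 IDR summits and 26 joint summits, and 25 of the 26 joint summits were in introns of ush-RE and 1 in its exon 2. Intron 1 of ush-RE had 4 IDR summits and 9 joint summits, and intron 2 had 4 and 12. Intron 3, 10.6 kb long, had no IDR summit and 4 joint summits, with signals from 19.7 to 32.2. The longest gap between neighbouring joint summits of the window, 10113 bp, began there at 530512 and ran over exons 4 to 9, which hold most of the coding sequence.

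To the right of peak 6 came 7 joint regions, from the one with its summit at 484331 to the one at 490245 in exon 2 of ush-RE. Their summits were 620 to 1285 bp apart, with a median of 1004 bp. Their signals ranged from 19.8 to 83.6, and peak 7 was the strongest. In replicate 3, 3 of the 7 had a counterpart, so the spacing rests largely on replicate 2 and the joint list. Elsewhere in the window neighbouring joint summits were 202 to 10113 bp apart. The spacing over the series is not given here, so these gaps describe this stretch alone.

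All 11 IDR peaks had a summit within 150 bp in both complete replicate lists, as did 96% of all IDR peaks. Among the 3438 strongest regions of each replicate, 8 of the 11 were matched in both, against 69.5% of all IDR peaks. Both shares are near those of the series. The IDR list was made with these replicate lists, so such matches are partly built in. Peaks 2 and 9 were missing from that set in replicate 3 and peak 11 in replicate 2. Of the 20 weaker joint regions, 9 had a counterpart in both complete lists, 8 in replicate 2 alone and 3 in replicate 3 alone. The same shares over all weaker joint regions of the series are not given here, so these counts describe the window alone.

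Signals were higher in replicate 2 for 10 of the 11 IDR peaks. The ratio of replicate 2 to replicate 3 had a median of 1.35, from 0.831 for peak 1 to 2.79 for peak 9. Over all 3302 IDR peaks with a counterpart in both lists the median ratio was 1.37, with 10th and 90th percentiles of 0.861 and 2.37. The lists were scored separately. Peak 9 was the only IDR peak of the locus above that range and peak 1 the only one below it. Peak 5, the strongest, had a ratio of 1.13.

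**Figure D3:**
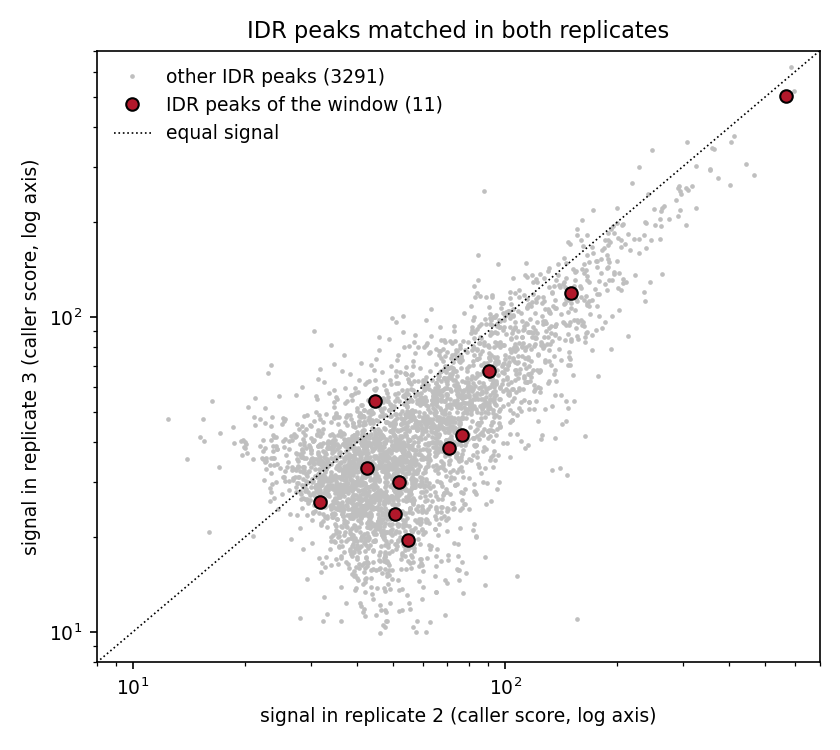
Signal of each IDR peak in replicate 2 against replicate 3 (caller scores, log axes), for the 3302 IDR peaks found in both lists, with the 11 of the window in red and the line of equal signal dotted. Peak 5 sits at the upper right at 568 and 503, and the weaker peaks of the window lie within the cloud of the others.

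Replicate 2 listed 16 regions in the window without a joint counterpart and replicate 3 listed 3. All were weak, up to 18.6 in replicate 2 and 11.1 in replicate 3. In replicate 2, 1 of them shares its start and end with the strongest region but has its summit at 481264 and a signal of 14.3. The caller thus listed the same stretch with 2 summits there. The share of regions without a joint counterpart over each complete replicate list is not given here, so the counts of 16 and 3 describe the window alone.

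The sequence under the IDR peaks of the locus had a lower median share of A and T than IDR peaks at large. Over 201 bases centred on the summit, the share of A and T had a median of 63.2% in the 11 peaks and 66.7% over all IDR peaks, with 10th and 90th percentiles of 58.2% and 73.6%. The 6 chromosome arms as a whole have 57.8%. Peak 5 had 61.2%, peak 7 the least with 56.7% and peak 10 the most with 70.1%. Peak 7 was thus the only IDR peak of the locus outside that range.

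The motif search read either strand up to 100 bp from a summit, so some matches lie outside the stretches printed above. Peak 5 held 2 of the 15 motifs, TATAAA (the TATA box) across the summit, which reads TTTATA on the plus strand, and CGATA (the core bound by the insulator protein BEAF-32) starting 50 bp to its right, which reads TATCG. The first of these, TATAAA, was found in 4 of the 11 peaks and in 41.3% of all IDR peaks, and CGATA in 2 of 11 and in 28.3%. Neither is thus rare among IDR peaks.

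GAGAG, the core bound by GAGA factor, was found in peaks 4, 9, 10 and 11, which is 4 of 11 against 19.9% of all IDR peaks. The GATA sites AGATAA and TGATAA, letters bound by the partners of the Ush protein, were found in 3 and 2 of the 11 peaks, against 15.1% and 18.2% of all. Neither GATA motif lay within 100 bp of the 3 summits upstream of cbt. TCAGT, part of the initiator, was in 5 peaks (35.1% of all) and runs of AAAAAA in 7 (50.2% of all).

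CACCC, which is part of sites of KLF-type factors, was in 2 peaks (13.8% of all). The remaining 7 motifs were in none of the 11 windows. Of these the DNA replication-related element TATCGATA, which contains CGATA, was in 3.14% of all IDR peaks, the Zelda site CAGGTAG in 0.756% and the M1BP motif GGTCACAC in 1.28%. The E-box CAGCTG was in 7.65% and the GC box GGGCGG in 2.62%. The AP-1 site TGANTCA was in 5.35% and the repeat ACACAC in 9.86%. The other motifs were counted separately even where matches overlap. A match is a run of letters and not a site shown to be bound. At the median an IDR peak held 2 of the 15 motifs, both in the locus and in the series.

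Among 13945 protein-coding genes, 4 held more IDR summits in their span than ush, with its 8, and 2 others held as many. Of the 198 genes at least as long as ush, 89 held none, the median was 1 and the highest count was 14. The genes most like ush by number of IDR summits and then by length were rdx (8 summits over 65.0 kb, encoding a BTB protein that targets Cubitus interruptus for degradation), shn (8 over 58.3 kb, a zinc finger factor of dpp signalling) and sbb (9 over 79.1 kb). Next came RapGAP1 (7 over 81.2 kb) and the Wnt receptor gene fz (7 over 94.3 kb).

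These genes resembled ush in number and not in the height of their strongest peak. The strongest IDR peak in their spans had a joint signal of 178 in rdx, 151 in shn, 206 in sbb, 334 in RapGAP1 and 170 in fz, against 1068 in ush. Their weakest ranged from 58.6 in fz to 73.2 in shn, close to the 59.03 of ush. In shn, sbb and fz none of the summits lay within 500 bp of a TSS, in ush and rdx 1 did and in RapGAP1 3. The summit counted at a TSS in ush is peak 4, at the TSS of cbt. Signals chose ush for description here, so its lead over these genes is not a test.

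**Figure D4:**
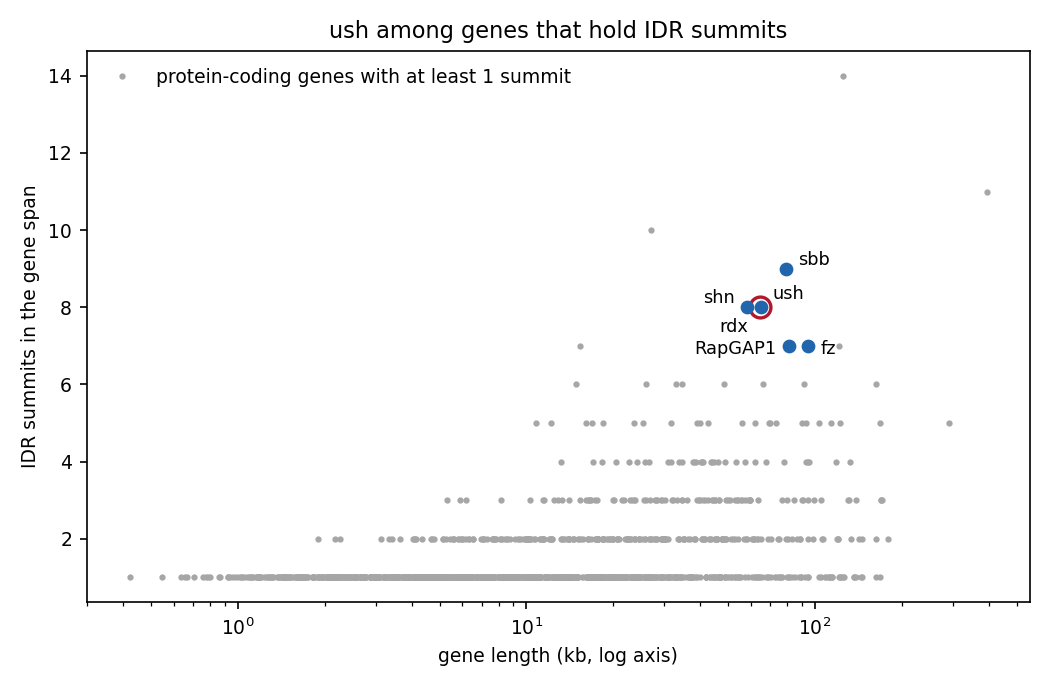
Number of IDR summits in the span of each protein-coding gene with at least 1, against gene length (kb, log axis), with ush ringed in red and the 5 genes most like it in blue. The gene rdx sits almost on top of ush at 8 summits, and 4 genes lie above it.

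Other genes tied to ush and cbt were mostly free of promoter peaks. Of 58 genes in 5 lists, counted once each and without cbt, 4 (6.90%) were occupied at a promoter, against 16.5% of all protein-coding genes. With cbt the count was 5 of 59, and it rose to 10 when the distance was widened to 1000 bp. The share of all protein-coding genes at 1000 bp is not given here, so that rise is not a result about the lists. At 500 bp none of the 15 GATA factors and genes tied to ush was occupied, including pnr, srp and CtBP. Nor was any of the 16 dpp signalling genes. Of these, wit, brk and Mad had their nearest IDR summit 544, 601 and 668 bp from a TSS. The nearest IDR summit was 51612 bp from a TSS of pnr and 11685 bp from one of srp, and for CtBP, which encodes a corepressor, it was 823 bp away.

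Of 13 genes of JNK signalling and dorsal closure 2 were occupied, Tak1, a kinase gene, with 83.8 (41.7 in replicate 2 and 39.1 in replicate 3) and kay, the Fos gene, with 59.6 (35.7 and 18.7). Of 10 KLF and SP zinc finger genes the only one was cbt itself, with 271. Of 7 sugar response genes there were 3, cbt again, bigmax with 94.5 (50.6 in replicate 2 and 54.1 in replicate 3) and Mondo with 71.3, which encode partner transcription factors that sense sugar. Mondo had a counterpart in replicate 3 (29.5) and none in replicate 2. The peak at cbt was the strongest of these 5.

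The ush gene holds IDR summits in its span and none within 500 bp of its own TSSs, peak 4 being at that of cbt. The same held for 14 of the 58 listed genes (24.1%) and for 4.12% of all protein-coding genes, with gene length not matched between them. The 14 were shn with 8 summits, msn with 5, puc with 4, sog, Dad and luna with 3 each, wit with 2, and CtBP, dpp, Mad, egr, raw, dar1 and Pepck2 with 1 each. The gene msn encodes a kinase upstream of JNK, puc a phosphatase that limits JNK, sog an inhibitor of Dpp signals, Dad an inhibitory Smad and luna a KLF factor. The lists were written with earlier results of these data known, and no test was made on them.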

How the data were processed

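ChIP-seq of E(var)3-9-GFP was deposited by the authors as lists of regions in assemblies dm6 and dm3. Per the file descriptions deposited with them, each replicate has a list of peaks and background made with a control as input for IDR, a joint list was made from both replicates and the control, and the IDR list from these. Chromatin was sonicated to 200 to 800 bp, per the labels. No source used here names the aligner, the caller or its threshold. The signal is a score with no stated scale, as deposited by the authors, and serves here for ranks and descriptions alone. Its sums, shares and ratios describe scores and not amounts of binding. The −log10 q-value deposited beside it enters no result. The IDR peaks were identical to the 3438 strongest joint regions. The control and the signal tracks are not analysed here, so no background level is given.

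Positions are 1-based dm6. Genes and TSSs came from Ensembl release 115 without transposable elements, and sequences from the RefSeq genome of the same assembly (Release 6). Replicate counterparts are the strongest region with a summit within 150 bp. No test was made: there is 1 group, and the locus was chosen by the values described. Members, gene lists and motifs were chosen with earlier results of these data known. Genes named are those in or next to the window, list members with a promoter peak, and the 5 genes nearest to ush in number of IDR summits and then length; other list members were named after their values were seen. Of the names in the sugar list, Mlx did not match the annotation. Alternatives were a stricter threshold, each replicate alone, other distances, overlap rules, motif windows, TSS sets and dm3. Matching and motif search were checked on simulated data. Python 3.11.15, numpy 2.4.6, pandas 2.3.3 and matplotlib 3.10.9 were used.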

Additional observations from a re-analysis of the deposited data

How the results depend on the processing

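Of 38 alternative values, 29 stayed within 1.5 times the reported count or within the spread of the replicates. With the 860 strongest IDR peaks the window held 3 (peaks 3, 4 and 5), all 3 matched in both replicates, at 3.95 per 100 kb. At that cut 1 listed gene, cbt, was occupied. The density over all arms at that cut is not given, so 3.95 cannot be set beside the densities above. Within 250 bp of a TSS, 1 IDR peak of the window (peak 2) and 3 listed genes (Tak1, Mondo and bigmax, not cbt) were counted, and within 1000 bp 10 listed genes were counted. By either replicate alone, the strongest signal was 503 to 568 on each list's own scale, always at rank 3, the window held 10 to 11 of the 3438 strongest regions (13.2 to 14.5 per 100 kb) and 27 to 46 of all listed regions, 9 to 10 IDR peaks were matched, 2 to 4 strong regions lay within 500 bp of a TSS, and 6 to 7 listed genes were occupied. In dm3 the region was found by its signal, so its equal signal was set by the search and its rank of 3 adds no support. Both dm3 values are counted among the 29. Counts of the window in dm3 were not run, because the signal of the window's last region lies below the lowest in the dm3 joint list. The right edge of the window could thus not be found there. The share of all protein-coding genes is not given at these other settings, so their counts of listed genes have no background beside them. No paired analysis was possible because there is 1 group. With read depth unknown, weak regions cannot be told from absent ones, and their number depends on each list's cut.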
